A study of Mus musculus with 6 samples.

Results

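The genes described are 10 mouse histone lysine demethylase genes of the JmjC class outside the KDM6 subfamily. They were listed by family and symbol, without a threshold on measured values, but with earlier results of these data known. They are Kdm2a and Kdm2b of the KDM2 subfamily, Kdm3a and Kdm3b of KDM3, Kdm4a, Kdm4b and Kdm4c of KDM4, Kdm5a and Kdm5b of KDM5, and Kdm7a of KDM7. They are 10 of 24411 features in the count tables, and all 10 were among the 10133 genes that had enough counts to be tested. Their counts were between 28 and 903 fragments in a library.

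RNA-seq was performed on primary microglia (PM), the resident macrophages of the brain, grown from 3-day-old ICR mice and shaken off mixed glial cultures. A set of 3 libraries came from PM exposed to GSK-J4 (10 µM) and another 3 from PM exposed to LPS (10 ng/ml) together with GSK-J4 (10 µM), each for 4-h. LPS is a bacterial ligand of TLR4, and GSK-J4 is a cell-permeable ester of an inhibitor of the KDM6 demethylases that has also been found to act on KDM5 enzymes in vitro. Since both groups received GSK-J4, the comparison measures the response to LPS in its presence, and untreated and LPS-only PM were not analysed here. The labels name no genetic change, the culture can hold other glia, and the replicates are described by the study as independent samples. In these libraries all 8 of 8 genes of a list of LPS-response genes rose, among them Tnf, which encodes tumour necrosis factor, from 34.4 ± 5.71 to 4298 ± 235 CPM (counts per gene scaled to a common library total).

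JmjC demethylases are dioxygenases that use iron, oxygen and 2-oxoglutarate to hydroxylate a methyl group on a histone lysine, which is then lost as formaldehyde. The subfamilies differ in substrate. KDM2 enzymes act mainly on H3K36, KDM3 enzymes on mono- and dimethylated H3K9, KDM4 enzymes on trimethylated H3K9 and H3K36, KDM5 enzymes on di- and trimethylated H3K4, and KDM7A on dimethylated H3K9 and H3K27.

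Levels are CPM scaled by the TMM method, errors are SD over 3 libraries, and fold changes are log2 ratios of LPS + GSK-J4 to GSK-J4 from edgeR's quasi-likelihood test. Genes are said to rise or fall where the adjusted p was 0.01 or less, and the study's additional threshold is an absolute log2 fold change of 1.5. By the first criterion, 2 of the 10 genes fell, Kdm3a and Kdm2a, and 0 rose. Of all genes tested, 5.46% fell and 8.42% rose. Scaled by library size alone, 8 of the 10 fell, beside 3366 genes that fell and 343 that rose in all, with a shift of -0.57 in the median of all genes. At an unadjusted p under 0.05, 4 of the 10 were lower and 0 were higher, beside 15.5% and 19.3% of all genes, and DESeq2 at the adjusted threshold of 0.01 gave 2 lower and 0 higher. By either tool 0 of the 10 passed the study's thresholds, which 0.809% of all genes passed as lower and 2.95% as higher. The log2 fold change was negative for 9 of 10, with a median of -0.25, beside -0.000640 over all genes tested. The 3 LPS + GSK-J4 libraries lay wholly below the 3 GSK-J4 libraries for 4 of the 10, namely Kdm2a, Kdm3a, Kdm3b and Kdm4c, where 18.4% of all genes did so, and for 0 of the 10 did they lie wholly above, where 19.8% of all genes did.

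**Figure D1:**
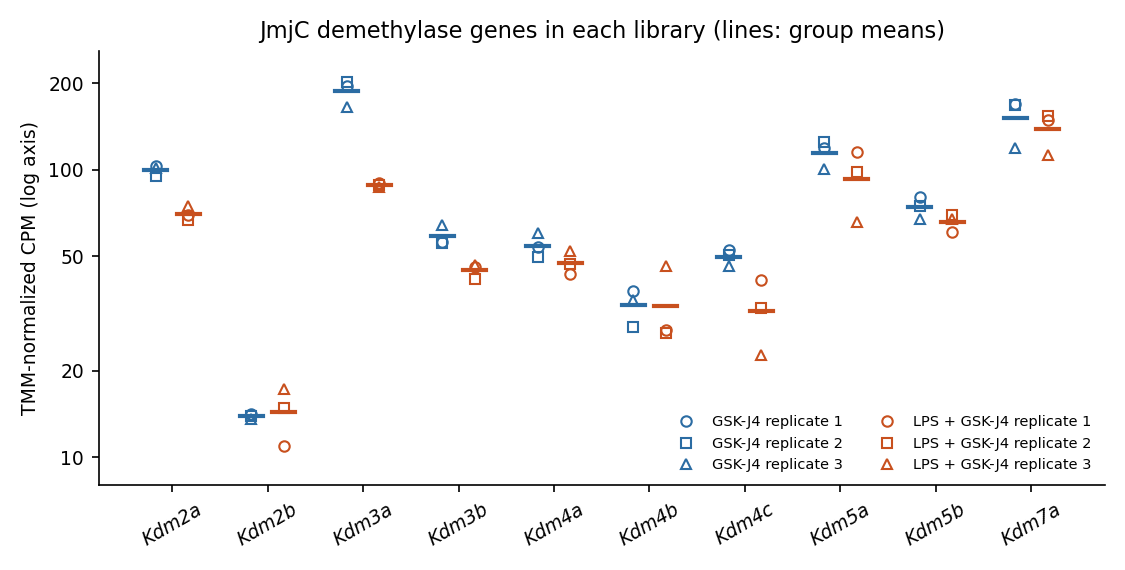
TMM-normalized CPM on a log axis for each of the 10 genes in the 3 GSK-J4 (blue) and 3 LPS + GSK-J4 (orange) libraries, with symbols for replicate numbers and lines for group means. The orange symbols lie below all blue symbols for Kdm2a, Kdm3a, Kdm3b and Kdm4c and overlap them for the other 6 genes.

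**Figure D2:**
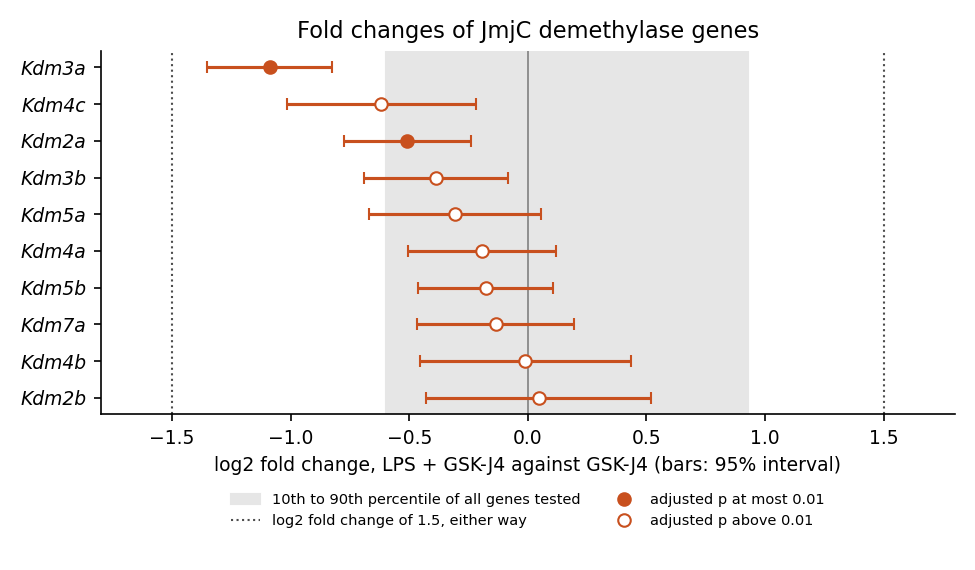
Log2 fold change of LPS + GSK-J4 against GSK-J4 with its 95% interval for each gene. Filled points mark Kdm3a and Kdm2a, which passed an adjusted p of 0.01, the dotted lines mark 1.5 in either direction, and the grey band spans the 10th to 90th percentile of all genes tested, -0.60 to 0.93.

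Among the H3K9 demethylases of the KDM3 subfamily, Kdm3a gave the largest change of the 10 genes. Kdm3a, also called Jmjd1a, is known as a gene that hypoxia-inducible factor (HIF) activates and as a coactivator of nuclear receptors. It lies on the minus strand at chr6:71588972-71632990 of mm10. Its level was 196, 203 and 166 CPM in GSK-J4 replicates 1, 2 and 3, and 90.2, 88.5 and 87.1 CPM in LPS + GSK-J4 replicates 1, 2 and 3. The lowest GSK-J4 library was thus far above the highest LPS + GSK-J4 library. The means were 188 ± 19.7 and 88.6 ± 1.51 CPM, a log2 fold change of -1.09 (SE 0.12, 95% interval -1.35 to -0.82, edgeR adjusted p = 9.11e-06), or a level that fell by 53.0%. The call held in each of the 18 processing alternatives, though the looser thresholds among them, applied to the same fit, could not remove it. The interval did not reach -1.5, and 2.48% of all genes tested had a log2 fold change at or below that of Kdm3a.

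Its paralog Kdm3b, on the plus strand, was at 56.2, 55.7 and 64.5 CPM in GSK-J4, against 46.1, 41.6 and 46.7 CPM in LPS + GSK-J4. The groups did not overlap, but the log2 fold change of -0.39 (SE 0.14, 95% interval -0.69 to -0.08) did not pass the test (edgeR adjusted p = 0.0611). Within each library the share of Kdm3a in the fragments of the pair, a measure that no scaling between libraries affects, was 77.7, 78.5 and 72.0% in GSK-J4, against 66.2, 68.0 and 65.1% in LPS + GSK-J4. These shares did not overlap between the groups, so Kdm3a was lower in relation to Kdm3b as well. As a share of the fragments of all 10 genes, Kdm3a went from 22.4% ± 1.04 to 14.1% ± 0.510. With 3 libraries against 3, an exact permutation test of such a share cannot go below p = 0.1.

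The start site of Kdm3a is shown with that of Kdm7a, which is also on the minus strand of chromosome 6, because the 2 genes had the highest levels per length and differed in their change. Both sequences run 5′ to 3′ on the strand of the gene from 250 bases before to 50 bases after the first start site in the RefSeq table of GRCm38.p6, at chr6:71632868-71633167 for Kdm3a and chr6:39206724-39207023 for Kdm7a. Capitals mark the core of the hypoxia response element, searched as ACGTG or GCGTG on both strands.
Kdm3a: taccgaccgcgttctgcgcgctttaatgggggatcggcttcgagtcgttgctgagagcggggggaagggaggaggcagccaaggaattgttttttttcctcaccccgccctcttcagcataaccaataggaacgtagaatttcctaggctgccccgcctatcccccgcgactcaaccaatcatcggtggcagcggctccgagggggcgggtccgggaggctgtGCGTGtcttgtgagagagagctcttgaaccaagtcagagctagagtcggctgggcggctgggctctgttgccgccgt
Kdm7a: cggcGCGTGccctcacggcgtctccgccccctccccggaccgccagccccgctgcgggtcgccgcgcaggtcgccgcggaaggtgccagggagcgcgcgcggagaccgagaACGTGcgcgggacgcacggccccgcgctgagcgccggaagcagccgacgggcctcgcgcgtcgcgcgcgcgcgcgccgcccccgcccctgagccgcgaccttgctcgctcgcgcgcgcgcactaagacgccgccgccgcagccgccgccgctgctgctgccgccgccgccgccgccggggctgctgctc

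The Kdm3a window held 1 core, 27 bases before the start site, and the Kdm7a window held 2, at 246 and 139 bases before it. These distances are from the RefSeq start. The GENCODE gene of Kdm3a begins 73 bases further upstream, so that its core lies 46 bases inside that gene, while both cores of Kdm7a lie upstream of the GENCODE start too. Either core was present in 43.8% of the 27025 promoter windows of the table and in 4 of the 6 genes that have a window there, Kdm2b, Kdm3a, Kdm5b and Kdm7a, but not in Kdm4a or Kdm4c. Kdm2a, Kdm3b, Kdm4b and Kdm5a had no entry. The GC box GGGCGG occurred 3 times in the window of Kdm3a, 3 times in that of Kdm7a and 1 time in that of Kdm5b, and was found in 35.9% of all windows on either strand. The CCAAT box CCAAT occurred 2 times in Kdm3a and 1 time in Kdm4a, with 37.9% of all windows holding it. A consensus for NF-kappaB was found in Kdm2b and Kdm5b and in 8.18% of all windows, and the AP-1 motif TGANTCA in Kdm4a and in 7.93% of all windows. The GC content was 60.7% for Kdm3a and 82.7% for Kdm7a, against 40% for Kdm4c, whose window had 0 CpG dinucleotides, and a median of 52.7% over all windows. These matches describe letters in a window and were not tested for binding. Starts were compared with GENCODE for Kdm3a and Kdm7a alone, and whether the window of Kdm4c holds its main start was not tested.

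Kdm7a encodes a demethylase with a PHD finger that reads trimethylated H3K4. Its level was 169, 168 and 119 CPM in GSK-J4, against 149, 154 and 113 CPM in LPS + GSK-J4, and replicate 3 was the lowest library of both groups. The groups overlapped, and the log2 fold change was -0.14 (95% interval -0.47 to 0.19, edgeR adjusted p = 0.580). The spread between libraries, 18.9% of the mean in GSK-J4, against 16.1% in LPS + GSK-J4, was larger than the 4.10% and 5.32% that counting alone gives at these mean counts.

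Of the H3K36 demethylases, Kdm2a fell and Kdm2b did not pass the test. Kdm2a, which encodes a protein that binds unmethylated CpG islands through its zinc finger, lies on the minus strand at chr19:4314419-4398285. It was at 104, 94.9 and 102 CPM in GSK-J4, against 69.5, 66.8 and 74.7 CPM in LPS + GSK-J4, with no overlap. The means were 100.03 ± 4.51 and 70.3 ± 4.05 CPM, a log2 fold change of -0.51 (SE 0.13, 95% interval -0.77 to -0.24, edgeR adjusted p = 0.00745), or a level that fell by 29.7%. The call was lost in 5 of 6 fits without 1 library, at adjusted p values of 0.0416, 0.0230 and 0.0190 without GSK-J4 replicate 1, 2 or 3, and 0.0229 and 0.0492 without LPS + GSK-J4 replicate 1 or 2, with log2 fold changes between -0.55 and -0.47.

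Kdm2b, at chr5:122870665-122989823 on the minus strand, encodes the paralog that brings the PCGF1 form of Polycomb repressive complex 1 to CpG islands. It was the gene with the fewest counts and was at 14.2, 13.9 and 13.6 CPM in GSK-J4, against 10.9, 14.9 and 17.3 CPM in LPS + GSK-J4, so that the LPS + GSK-J4 libraries spanned those of GSK-J4. The log2 fold change of 0.05 (95% interval -0.43 to 0.52, edgeR adjusted p = 0.912) was the only positive one of the 10, and it changed sign in 4 of the 18 alternatives, library size alone among them. Kdm2b shares 627 bases with Rnf34 on the opposite strand, and strand-specific counts were used. On its own strand its span overlaps those of Gm44574 over 2141 bases and Gm43411 over 1579, neither of which is in the count tables, and fragments of these within exons of Kdm2b cannot be told apart from its own. The share of Kdm2a in the fragments of Kdm2a and Kdm2b was 88.0, 87.2 and 88.2% in GSK-J4, against 86.4, 81.8 and 81.2% in LPS + GSK-J4, and did not overlap. The gap between the nearest libraries, at 87.2 and 86.4%, was narrow. The latter rests on 28 fragments of Kdm2b. At the mean count of Kdm2b in LPS + GSK-J4, counting alone gives an SD of 16.6%, and at 28 fragments it gives more.

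**Figure D3:**
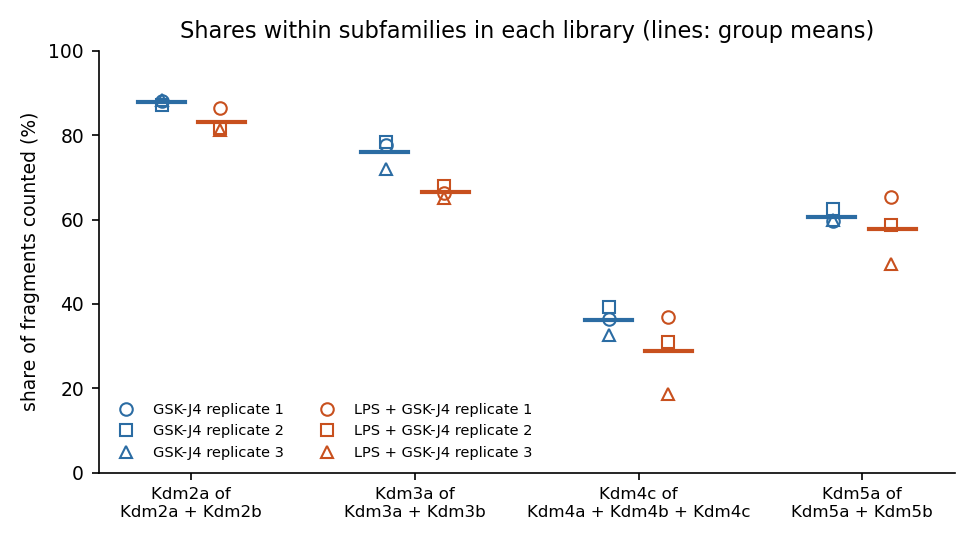
Share in percent of 1 gene in the fragments counted on its subfamily, for each of the 3 GSK-J4 (blue) and 3 LPS + GSK-J4 (orange) libraries, with lines for group means. The shares of Kdm2a and Kdm3a do not overlap between the groups, for Kdm2a by a narrow gap (87.2 against 86.4%). Those of Kdm4c and Kdm5a overlap.

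The KDM4 genes encode enzymes that act on trimethylated H3K9 and H3K36 and carry tandem Tudor and PHD domains. Of this subfamily 0 of 3 genes passed the test. Kdm4c, at chr4:74242497-74405860 on the plus strand, was at 52.6, 50.5 and 46.2 CPM in GSK-J4, against 41.4, 33.2 and 22.7 CPM in LPS + GSK-J4. The groups did not overlap, yet the LPS + GSK-J4 libraries differed from each other by more than the groups' nearest libraries did, with an SD of 28.8% of their mean. The log2 fold change was -0.62 (SE 0.19, 95% interval -1.02 to -0.22, edgeR adjusted p = 0.0251). It passed at an adjusted p of 0.00558 without LPS + GSK-J4 replicate 1. Without replicate 3 of that group, its lowest library, the log2 fold change was -0.42 (edgeR adjusted p = 0.0533). Without replicate 3 of both groups it was -0.46 (edgeR adjusted p = 0.0213).

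Kdm4a, on the minus strand at chr4:118136957-118180043, was at 54.0, 49.6 and 60.1 CPM in GSK-J4, against 43.3, 46.9 and 52.4 CPM in LPS + GSK-J4, with overlap and a log2 fold change of -0.19 (95% interval -0.51 to 0.12, edgeR adjusted p = 0.386). Kdm4b, on the plus strand at chr17:56326062-56402870, is another gene known to be induced by HIF in low oxygen. It was at 38.0, 28.5 and 35.2 CPM in GSK-J4, against 27.7, 27.1 and 46.3 CPM in LPS + GSK-J4. Replicate 3 of LPS + GSK-J4 was the highest of the 6 libraries and the other 2 of that group were the lowest, for an SD of 32.3% of the mean where counting alone gives 10.9%. The log2 fold change was -0.01 (95% interval -0.45 to 0.43, edgeR adjusted p = 0.980), with a change of sign in 4 of the 18 alternatives. That same library was the lowest for Kdm4c, and the share of Kdm4c in the fragments of the subfamily was 36.8, 31.0 and 18.7% in LPS + GSK-J4, against 36.4, 39.3 and 32.6% in GSK-J4.

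The KDM5 genes encode H3K4 demethylases that work in repressor complexes with SIN3 and histone deacetylases, and 0 of 2 passed the test. Kdm5a, also known as the retinoblastoma-binding protein gene Rbp2, lies at chr6:120364124-120444574 on the plus strand. It was at 119, 125 and 101 CPM in GSK-J4, against 115, 98.4 and 65.7 CPM in LPS + GSK-J4. The groups overlapped, replicate 3 was the lowest of each group, the SD in LPS + GSK-J4 was 27.04% of the mean where counting alone gives 6.49%, and the log2 fold change was -0.31 (95% interval -0.67 to 0.06, edgeR adjusted p = 0.220). Kdm5b, also called Plu1 and located at chr1:134560171-134635285 on the plus strand, was at 80.7, 74.7 and 67.5 CPM in GSK-J4, against 60.9, 69.4 and 67.3 CPM in LPS + GSK-J4. These values also overlapped, with a log2 fold change of -0.18 (95% interval -0.46 to 0.11, edgeR adjusted p = 0.383). The share of Kdm5a in the fragments of the pair spanned 59.6 to 62.6% in GSK-J4, against 49.4 to 65.4% in LPS + GSK-J4.

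A p that misses the threshold does not show that a gene was unchanged, and the intervals set how large a change could have been. The 95% interval lay inside a log2 fold change of 1.5 in either direction for all 10 genes, inside 1 for 8 and inside 0.5 for 3, and excluded 0 for 4. Summed over the 10 genes, the level was 884, 864 and 774 CPM in GSK-J4, against 654, 641 and 593 CPM in LPS + GSK-J4, and Kdm3a made up the largest part of the difference between the means of 840 ± 58.3 and 629 ± 31.8 CPM. In bulk samples, fewer cells of a type and less RNA per cell cannot be told apart.

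Levels can be set beside each other only per length. As RPKM over the union of GENCODE exons in mm10, Kdm3a had the highest level in GSK-J4, 37.6 ± 3.94, followed by Kdm7a with 15.9 ± 3.00 and Kdm4c with 11.5 ± 0.753. Kdm3a did not overlap with Kdm7a, nor Kdm7a with Kdm4c. Levels from 11.5 down to 10.3 RPKM, those of Kdm4c, Kdm4a, Kdm5a and Kdm2a, each overlapped with the next in order, Kdm2a did not overlap with Kdm3b, and those of Kdm3b, Kdm5b and Kdm4b, between 8.46 and 7.41, overlapped again. The lowest was Kdm2b with 2.37 ± 0.0506 RPKM, apart from its neighbour Kdm4b. In LPS + GSK-J4 the top 2 and the last place were held by the same genes. Kdm3a was at 17.7 ± 0.302 and Kdm7a at 14.5 ± 2.33 RPKM, still without overlap, while the 7 genes from Kdm4a at 9.41 to Kdm3b at 6.44 each overlapped with the next, and Kdm2b was at 2.45 ± 0.552. With the length of the transcript with the longest coding sequence in place of all exons, these 3 genes kept their places, but Kdm7a overlapped with Kdm4c in GSK-J4.

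The 10 genes differed in their spread across libraries. Replicate 3 was the lowest library of both groups for Kdm3a, Kdm4c, Kdm5a and Kdm7a and the highest of both for Kdm3b and Kdm4a. Over all genes, counts of replicate 3 differed from those of the other replicates of its group with a chi-square per degree of freedom between 5.81 and 12.5, against 2.12 and 2.32 between replicates 1 and 2. This value allows for library totals alone and includes Rn45s, the ribosomal precursor, so it is not the spread of a single gene. Rn45s took 22.2, 22.3 and 32.4% of fragments on genes in GSK-J4 replicates 1, 2 and 3, against 48.1, 45.8 and 47.5% in LPS + GSK-J4. The part of such shifts in the chi-square was not tested. Without replicate 3 of both groups, 2 of the 10 genes were lower and 0 higher, as with all libraries.

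Across the 6 libraries, the genes whose centred log2 levels were most like those of Kdm3a were Pik3c3, Mief1 and Rit1. Their root mean square difference from Kdm3a was 0.0711, 0.0734 and 0.0744, where the median over 10132 genes was 0.597. Mief1, a gene for a receptor of the mitochondrial fission machinery, was at 124, 134 and 115 CPM in GSK-J4, against 55.0, 53.0 and 57.8 CPM in LPS + GSK-J4. Since the points of such a likeness share their 6 libraries and their depth, it is a description.

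The H3K27 demethylase genes of the KDM6 subfamily moved apart in the same libraries. Kdm6b was at 13.4, 13.02 and 22.0 CPM in GSK-J4, against 112, 92.3 and 133 CPM in LPS + GSK-J4 (log2 fold change 2.83, edgeR adjusted p = 3.45e-08), and Kdm6a was at 79.0, 93.2 and 69.3 against 60.1, 54.6 and 45.4 CPM (-0.60, adjusted p = 0.00994, lost without GSK-J4 replicate 1 or 2 or LPS + GSK-J4 replicate 2 or 3). The Kdm6a call was also lost with Rn45s, Mir6236 and Lars2 removed (edgeR adjusted p = 0.0101). The same held with at least 10 counts required in every library (edgeR adjusted p = 0.0113) and with glmTreat against a log2 fold change of 0.5.

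Of 17 other genes with a JmjC domain, 13 could be tested, of which 0 rose and 1 fell, as by DESeq2, and at an unadjusted p under 0.05 there were 2 higher and 1 lower. The gene that fell was Jmjd4, which encodes a lysyl hydroxylase of a translation termination factor, with 18.3 ± 2.63 CPM in GSK-J4, against 8.10 ± 2.90 in LPS + GSK-J4 (log2 fold change -1.15, edgeR adjusted p = 0.00423). Its call was lost without GSK-J4 replicate 1 or 3, at adjusted p values of 0.0174 and 0.0167, and without LPS + GSK-J4 replicate 1, at 0.0198. Jmjd7 had 0 counts in all 6 libraries, so the floor of 3 counts, 0.673 to 1.24 CPM, is the level it could have had in a library, as far as counting error goes.

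Lists of genes for enzymes that methylate H3K4, H3K9 and H3K36 were compared as well. Of the H3K4 methyltransferase complexes 0 of 13 genes passed, of the H3K9 methyltransferases 0 of 6, and of the H3K36 methyltransferases 0 of 5, with median log2 fold changes of -0.00460, 0.02 and 0.05. Partners of KDM2B in Polycomb repressive complex 1 gave 0 of 9 and partners of KDM5 enzymes 0 of 11, with medians of 0.15 and 0.24. DESeq2 also called 0 genes of these 5 lists. At an unadjusted p under 0.05, edgeR gave 1 higher and 1 lower of the H3K4 list, 0 of the H3K9 list, 1 higher and 1 lower of the H3K36 list, 1 higher of the KDM2B partners, and 3 higher and 1 lower of the KDM5 partners. Without LPS + GSK-J4 replicate 3, 1 of the KDM2B partners and 1 of the KDM5 partners were called higher, and without GSK-J4 replicate 3, 1 of the H3K4 list was. Among LSD demethylases, which use flavin in place of iron, and their CoREST partners, 1 of 6 fell. That gene was Rcor1, the scaffold of the CoREST complex, with 47.8 ± 2.37 and 30.5 ± 4.71 CPM (log2 fold change -0.65, edgeR adjusted p = 0.00786). Without LPS + GSK-J4 replicate 3, 1 gene of this list was called higher. Hdac1 and Hdac2 belong to this list and to that of the KDM5 partners, so both calls may be of the same gene. Rcor1 did not pass without GSK-J4 replicate 1, 2 or 3 or LPS + GSK-J4 replicate 1 or 2, with adjusted p values between 0.0195 and 0.0511.

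Other dioxygenases that depend on 2-oxoglutarate moved in both directions, with 1 of 14 higher and 3 lower. Egln3 and Egln1, the prolyl hydroxylases that mark HIF for degradation, also fell. Egln3 went from 75.8 ± 7.20 to 28.9 ± 10.01 CPM (log2 fold change -1.39, edgeR adjusted p = 6.91e-05), and Egln1 from 192 ± 19.9 to 91.9 ± 15.5 CPM (-1.06, adjusted p = 4.18e-05). The collagen lysyl hydroxylase gene Plod1 fell by 0.70 on the log2 scale (adjusted p = 0.00146), and its paralog Plod2 rose by 0.96 (adjusted p = 0.00208). Plod1 did not pass without LPS + GSK-J4 replicate 2, at an adjusted p of 0.0143, and Plod2 did not without GSK-J4 replicate 2 or LPS + GSK-J4 replicate 2, at 0.0103 and 0.0177.

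A list of 20 genes known to be activated by HIF, to which Kdm3a was not added, had 18 tested genes, of which 10 fell and 0 rose, with a median log2 fold change of -0.70. At an unadjusted p under 0.05, 14 were lower and 1 higher, and DESeq2 called 9 lower and 0 higher. Without 1 library the number that fell was between 6 and 10, the lowest without LPS + GSK-J4 replicate 2. The largest changes by size were those of Hk2, a hexokinase gene of glycolysis, from 367 ± 36.9 to 108 ± 1.52 CPM (log2 fold change -1.76, edgeR adjusted p = 2.17e-08), and of Pfkfb3, whose product raises glycolytic flux, from 417 ± 27.2 to 126 ± 9.97 CPM (-1.73, adjusted p = 2.10e-08). Bnip3, a mitophagy receptor gene, fell from 71.1 ± 7.81 to 29.5 ± 0.920 CPM (-1.28, adjusted p = 1.24e-05). Egln3 and Egln1 belong to this list too. Of all genes tested, 5.46% fell and 8.42% rose. The list was fixed with earlier results of these data known, so its count is a description. HIF protein was not measured, and a part of HIF in the fall of Kdm3a was not tested.

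**Figure D4:**
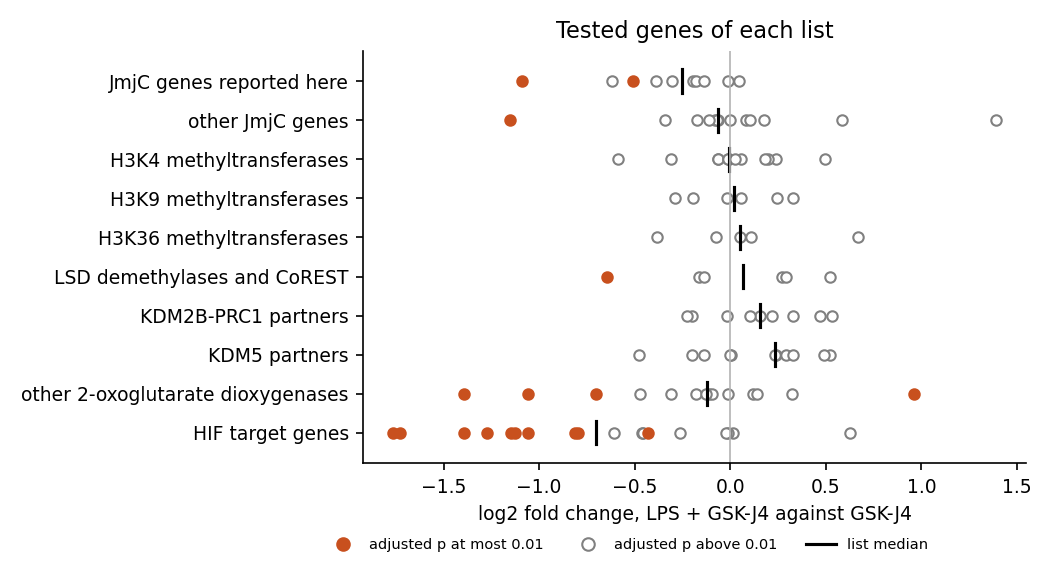
Log2 fold change of LPS + GSK-J4 against GSK-J4 for the tested genes of 10 lists, with filled points for genes past an adjusted p of 0.01 and a vertical line for each list's median. Among these 10 lists the HIF targets have the lowest median, -0.70, followed by the 10 demethylase genes with -0.25. The medians of the histone methyltransferases lie near 0. The 12 microglia markers, which are not plotted, had a median of -0.40.

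Markers of microglia and of other brain cells, and the share of ribosomal RNA, moved with the groups. The 12 microglia markers were all detected, with a summed level of 3723 to 3822 CPM in GSK-J4, against 2906 to 3039 in LPS + GSK-J4, and 2 of 12, Cx3cr1 and Csf1r, fell. All 12 had a negative log2 fold change, with a median of -0.40, 9 were lower at an unadjusted p under 0.05, and DESeq2 called 5 lower. Astrocyte markers summed to 57.5 to 60.5 CPM in GSK-J4, against 139 to 169 in LPS + GSK-J4, with 4 of 7 tested genes higher, and oligodendrocyte markers to 216 to 250 and 394 to 448 CPM, with 5 of 8 higher. Neuron markers summed to 26.2 to 31.6 and 59.5 to 75.3 CPM, with 3 of 3 higher, while the fibroblast markers overlapped, at 80.1 to 281 and 138 to 427 CPM, with 0 of 6 called by edgeR or DESeq2 and 1 higher at an unadjusted p under 0.05. Without GSK-J4 replicate 1, whose fibroblast markers summed to 281 CPM where the other 2 libraries of its group had 80.1 and 94.2, 3 of 6 were higher. No marker of these lists was at 0 in all 6 libraries. With library size alone in place of TMM, 11 of the microglia markers fell and 2, 0 and 0 of the astrocyte, oligodendrocyte and neuron markers rose, and without 1 library 0 to 5 of the microglia markers fell. The ribosomal precursor Rn45s took 22.2 to 32.4% of the fragments on genes in GSK-J4, against 45.8 to 48.1% in LPS + GSK-J4. Their part in the results on the demethylase genes was not tested. With Rn45s, Mir6236 and Lars2 removed before scaling, 2 of the 10 genes were again lower and 0 higher.

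**Figure D5:**
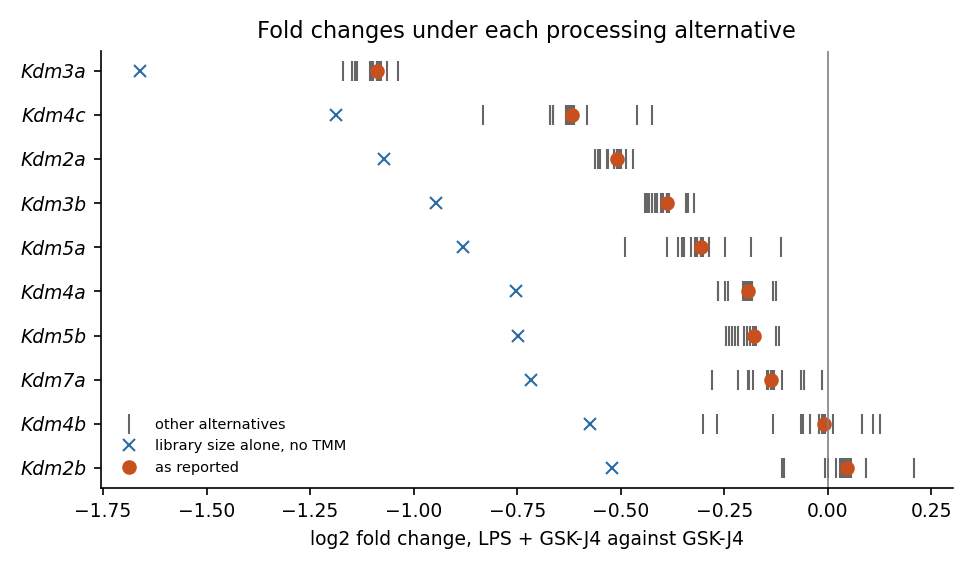
Log2 fold change of each of the 10 genes as reported (circle), with library size alone in place of TMM (cross) and under 17 other processing alternatives (bars). Bars of the alternatives that change the threshold or the test alone, within edgeR, coincide with the circle. Kdm3a stays between -1.66 and -1.04, and library size alone moves each gene towards lower values.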

How the data were processed

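The authors trimmed the reads (Trimmomatic 0.33), aligned them to mm10 (STAR 2.5.1) and deposited STAR's raw counts of uniquely mapped fragments per gene, without normalization. The annotation used for counting is not given in the sources used here. The reverse-strand column was used, as the directional kit sets, and the 4 summary lines were left out: 59.3 to 62.6% of uniquely mapped fragments had no feature on that strand. Genes received 2597505 to 3472716 fragments in a library, and 13919 to 15344 genes were detected. Without Rn45s, Mir6236 and Lars2, the totals were 2283295, 2443344 and 1499693 in GSK-J4 replicates 1, 2 and 3. In LPS + GSK-J4 they were 1412310, 1444886 and 1374377, so that this depth differed with the groups.

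Counts were scaled by TMM and tested with edgeR 4.0.16 in R 4.3.3 (filterByExpr at min.count 10 and min.total.count 15, robust quasi-likelihood test, 3 libraries against 3, no covariates), with Benjamini-Hochberg adjustment over 10133 genes. The biological coefficient of variation was 0.133. Intervals are 95% intervals of the fit. RPKM used GENCODE exon lengths, and promoter windows are RefSeq's. No 50-base sequence was shared by any of the 45 pairs of the 10 genes' exons. The script was tested on simulated data. The members and gene lists were chosen with earlier results of these data known. All 10 members are named, and of each list at most 4 genes that passed, by size of change. Likeness to Kdm3a was computed over log2 (CPM + 0.5).

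The alternatives comprised library size alone, size factors of DESeq2, counts without strand, removal of Rn45s, Mir6236 and Lars2, DESeq2 1.42.0, other filters and thresholds, a replicate block, and leaving out libraries.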

Additional observations from a re-analysis of the deposited data

Results flagged for a closer look

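Fragments on the strand opposite to Kdm7a, in the count column that the comparisons do not use, were few. In replicates 1, 2 and 3 there were 5, 8 and 4 of them with GSK-J4, against 13, 10 and 12 with LPS + GSK-J4. The column was singled out because each LPS + GSK-J4 library held more of them than each GSK-J4 library, in data outside the main measurement. Of the 10 genes, Kdm2a separated in the other direction in this column, with 6, 5 and 3 fragments against 1, 1 and 0. These counts are not scaled, and the share of all genes that separate in this column was not computed. In any library, fragments of this kind amounted to at most 4.38% of the number on the strand of Kdm7a. The annotated antisense gene 4930599N23Rik overlaps Kdm7a over 11690 bases, and its own counts were 1, 0 and 1 with GSK-J4, against 3, 5 and 11 with LPS + GSK-J4. These differences were not tested, and the counts are small.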

How the results depend on the processing

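Under each of the 18 alternatives, 0 of the 10 genes rose and Kdm3a fell. The number that fell was 2 as reported, 8 with library size alone, where the median of all genes shifted by -0.57, and 1 with glmTreat against a log2 fold change of 0.5. It was 1 to 2 without 1 library. None passed the study's thresholds except with library size alone, where 1 did, Kdm3a at -1.66. Relative to the median shift, Kdm3a was at -1.10 and Kdm2a at -0.51 there. Kdm2b changed sign to -0.52 with library size alone, -0.0079 with no filter on low counts, -0.11 without LPS + GSK-J4 replicate 3 and -0.11 without replicate 3 of both groups. Kdm4b changed sign to 0.08 and 0.01 without GSK-J4 replicates 1 and 3, and to 0.11 and 0.13 without LPS + GSK-J4 replicates 1 and 2. Over all fits without 1 library, Kdm2b lay between -0.11 and 0.21 and Kdm4b between -0.30 and 0.13. The cause was not tested. Of 180 values of a gene under an alternative, 155 kept their sign and side of the threshold, 11 passed it newly, 6 lost it, all of Kdm2a, and 8 changed sign. These include the looser thresholds on the reported fit, under which no gene could change sign or lose its call.

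Same-numbered libraries deviated together with correlations of -0.01, 0.12 and 0.30, against -0.29 to 0.24 for libraries of unlike number. The value for replicate 3 was the highest of any pair, but not every library was closest to its own number. With 3 replicates these correlations cannot decide whether the numbers pair the samples, and the reported fit used no pairing. With the replicate number as a block, 3 of the 10 genes fell, Kdm4c with an adjusted p of 0.000631 being added, and 1259 genes rose and 1016 fell in all, against 853 and 553. Over all genes, higher and lower calls numbered 343 and 3366 with library size alone, 457 and 196 with glmTreat, 1386 and 1004 at an adjusted p of 0.05 and 1356 and 953 at an unadjusted p of 0.01, with 858 lower with no filter. Lower calls numbered 359 without GSK-J4 replicate 2 and 312 without LPS + GSK-J4 replicate 2. Of the HIF targets, 17 fell with library size alone and 6 with glmTreat. At 28 to 62 counts in a library, Kdm2b was measured with the least precision.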
